A study of Mus musculus with 10 samples.

Results

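Expression of 10 AP-1 and immediate early genes (*Fos*, *Fosb*, *Fosl2*, *Jun*, *Junb*, *Jund*, *Egr1*, *Ier2*, *Ier3* and *Btg2*) was examined in bulk liver RNA of 5 ASK1f/f and 5 ASK1+hep mice. The genes were taken by symbol, and all 10 were found among the 54532 genes of the deposited table. All mice were on a C57BL/6J background, started HFD at the age of 6 weeks, received it for 7 weeks and were fasted for 5 h before collection. Both genotypes carry murine ASK1 cDNA behind a floxed stop cassette in ROSA26. Only ASK1+hep mice also carry Alb-Cre, which removes the stop under the albumin promoter, so that the transgene is meant for hepatocytes whereas the RNA came from whole liver. The study used males and females and names males for body weights after 7 weeks of HFD, and the labels do not give the sex of the mice sequenced. Each library was 1 mouse.

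AP-1 is a family of dimeric transcription factors. A protein of the Fos group pairs with a protein of the Jun group, or Jun proteins pair with each other, and the dimer binds DNA through a basic leucine zipper. Fos proteins do not form stable dimers among themselves. ASK1, encoded by *Map3k5*, is a MAP kinase kinase kinase that activates JNK and p38, and JNK phosphorylates c-Jun. Immediate early genes are transcribed within minutes of a stimulus without new protein synthesis, and their short-lived transcripts decay quickly, so a single RNA sample records the recent state of that animal. In liver, these genes are known to respond to partial hepatectomy, cytokines, feeding and handling. The comparison of ASK1f/f with ASK1+hep livers asks whether more ASK1 in hepatocytes goes with other steady-state levels of these transcripts.

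Values are FPKM, so each read number was divided by the length of the gene and a library size. This size was 0.890 to 1.06 times the reads on genes. It was lowest against these reads in ASK1+hep replicate 3, which raises FPKM there. Reads on genes numbered 13367742 to 16163378 per library. *Map3k5* itself was 6.74, 6.88, 5.77, 4.71 and 19.8 FPKM in ASK1f/f replicates 1 to 5, and 16.4, 11.1, 7.68, 12.4 and 15.2 FPKM in ASK1+hep replicates 1 to 5. Of all 10 libraries, the one labelled ASK1f/f replicate 5 held the highest *Map3k5* level, against its label. Its *Fgf21* level, looked up after the values had been seen, was 3.21 FPKM, inside the control range of 2.46 to 4.74 FPKM and below all ASK1+hep livers (7.40 to 30.1 FPKM). GC content and gene length together explained 1.42 to 9.04% of the squared deviations from the mean in 8 libraries, 17.1% in ASK1+hep replicate 3 and 25.2% in ASK1+hep replicate 5. Hepatocyte markers summed to 32987 to 45292 FPKM in ASK1f/f and 39431 to 49026 FPKM in ASK1+hep livers, none of them at 0 in any library, so the labelled tissue was seen in all 10 libraries.

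The members covered a wide range of levels. Ordered by the median over 10 livers, they were *Jund* (30.6 FPKM), *Ier2* (14.9), *Junb* (14.2), *Btg2* (7.74), *Jun* (7.37), *Egr1* (1.75), *Fosl2* (0.792), *Ier3* (0.496), *Fos* (0.468) and *Fosb* (0.0335). *Jund* stood at the 89.8th percentile of the 13306 genes that passed the filter on low reads (10 or more reads in 5 or more livers, once libraries were scaled to their median size), and *Fos* at the 12.9th percentile. All neighbours in this order overlapped in their ranges over the livers except *Fos* and *Fosb*. *Fosb* and *Ier3* did not pass the filter, so 8 of the 10 members entered the comparison across genes. The Jun family was therefore abundant and the Fos family sparse in these livers (plot of FPKM by gene).

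**Figure D1:**
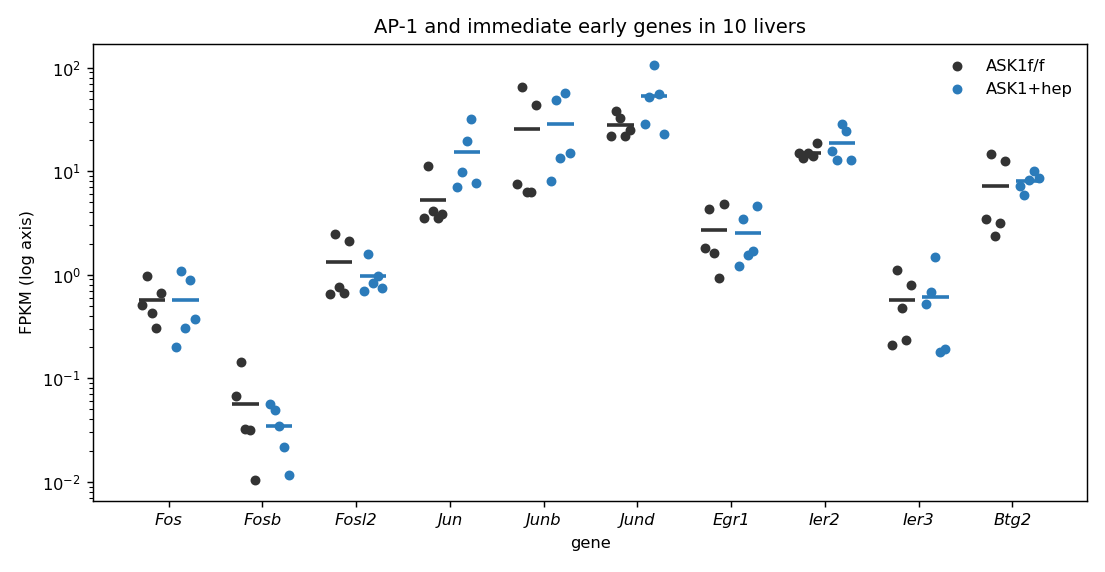
FPKM (log axis) of each member in 5 ASK1f/f livers (black) and 5 ASK1+hep livers (blue); each point is 1 mouse and each bar the group mean. Levels of *Jun* were 3.52 to 11.3 FPKM in ASK1f/f and 6.97 to 31.7 FPKM in ASK1+hep livers, and the groups overlapped in every member.

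The 250 bases before the RefSeq start of *Fos*, *Jun*, *Junb* and *Btg2* (GRCm38.p6) are shown, because these genes carried the patterns among livers described further on and differ in the motifs held there. They lie at chr12:85473640-85473889 (plus strand), chr4:95052223-95052472, chr8:84978749-84978998 and chr1:134079156-134079405 (all minus strand), outside the transcripts. Capitals mark the cyclic AMP response core TGACG, the 8-base element TGACNTCA bound by CREB, ATF and Jun dimers, the CCAAT box and the TATA box (TATAAA), each searched on both strands and read on the strand of the gene.
Fos: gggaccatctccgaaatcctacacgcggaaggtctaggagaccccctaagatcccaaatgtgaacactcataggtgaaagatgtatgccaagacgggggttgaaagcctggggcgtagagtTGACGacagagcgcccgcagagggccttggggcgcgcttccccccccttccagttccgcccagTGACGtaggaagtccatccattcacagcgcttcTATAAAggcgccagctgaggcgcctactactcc
Jun: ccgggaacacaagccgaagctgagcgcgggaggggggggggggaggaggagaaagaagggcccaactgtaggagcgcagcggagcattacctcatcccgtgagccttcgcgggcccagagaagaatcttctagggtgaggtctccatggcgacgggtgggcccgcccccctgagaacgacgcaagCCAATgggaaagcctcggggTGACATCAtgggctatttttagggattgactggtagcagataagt
Junb: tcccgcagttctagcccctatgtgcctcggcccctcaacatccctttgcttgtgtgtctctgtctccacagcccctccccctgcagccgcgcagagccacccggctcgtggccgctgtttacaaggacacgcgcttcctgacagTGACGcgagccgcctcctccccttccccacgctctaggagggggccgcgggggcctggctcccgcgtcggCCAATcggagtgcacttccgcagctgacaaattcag
Btg2: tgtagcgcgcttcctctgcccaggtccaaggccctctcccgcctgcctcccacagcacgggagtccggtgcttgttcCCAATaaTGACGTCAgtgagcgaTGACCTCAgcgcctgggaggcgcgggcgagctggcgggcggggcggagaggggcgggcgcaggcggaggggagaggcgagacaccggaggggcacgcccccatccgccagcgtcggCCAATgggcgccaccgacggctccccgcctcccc

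The set of motifs was chosen after these sequences and the expression values had been seen, and a match is a description, not a site of binding. The element TGACNTCA lay at bases -45 to -38 of *Jun* and at 2 places in *Btg2*, at -166 to -159 and -150 to -143, and was found in 7.49% of all 32851 RefSeq windows of this length. The first of the *Btg2* matches, TGACGTCA, also contains TGACG, which was found in 17.8% of windows and, besides *Btg2*, in *Fos* (at 2 places), *Junb* and *Fosb*. The TATA box at -33 to -28 of *Fos* was shared with 12.4% of windows, and CCAAT, present in *Jun*, *Junb*, *Btg2* and *Ier3*, with 33.8%. The 7-base AP-1 element TGANTCA (6.75% of windows), the STAT element TTCNNNGAA (7.02%) and the CArG box of serum response factor (1.47%) were in none of the 8 member windows at hand. No window of *Egr1* or *Ier2* was among these, so nothing is said of their motifs. The windows of *Jund* and *Fosl2* follow RefSeq starts that lie away from the gene starts in the deposited table and may not be the promoters of the transcripts counted. The absence of a match says only that these letters are not in these 250 bases.

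Between genotypes, none of the 8 members tested passed adjustment in limma on log2(FPKM + 1), with adjusted p between 0.812 and 0.982. The same test called 0 of 13306 genes (0.0%), while 768 had an unadjusted p under 0.05. *Jun* was the only member among these, and it was higher in ASK1+hep livers, as were 3.05% of all genes tested at this unadjusted level (2.72% were lower). Of the 8 members, 5 had a positive and 3 a negative log2 fold change, with a median of 0.32 against -0.0065 over all genes. In no member did all livers of one genotype lie above all of the other, a pattern seen in 115 of the 13306 genes (0.864%).

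**Figure D2:**
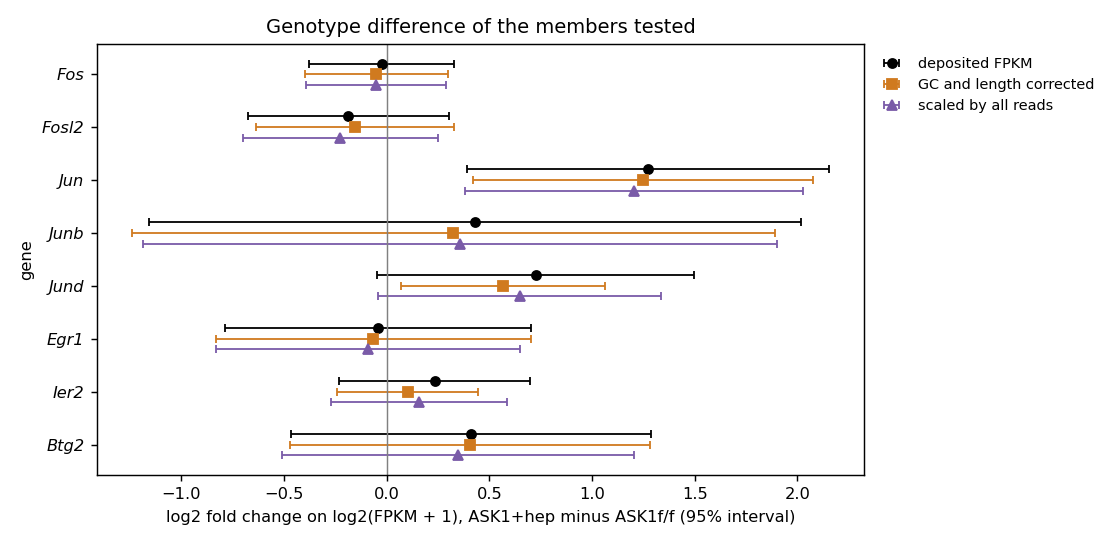
Log2 fold change (ASK1+hep minus ASK1f/f, on log2(FPKM + 1)) of the 8 members tested, with 95% intervals from limma, for the deposited FPKM, after correction for GC content and gene length, and after scaling by all reads; 5 livers per genotype. *Jun* lies at 1.27, 1.25 and 1.20, and *Jund* at 0.73, 0.57 and 0.65.

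*Jun* (ENSMUSG00000052684, GRCm38 chr4:95049034-95052222, minus strand, 1 exon) encodes c-Jun, the Jun protein with the strongest activation domain and the substrate for which JNK is named. Its level was 3.53, 11.3, 4.09, 3.52 and 3.87 FPKM in ASK1f/f replicates 1 to 5, and 6.97, 9.87, 19.6, 31.7 and 7.76 FPKM in ASK1+hep replicates 1 to 5. Every ASK1+hep liver lay above 4 of the 5 ASK1f/f livers, and ASK1f/f replicate 2 lay within the ASK1+hep range. The group means were 5.26 ± 3.37 and 15.2 ± 10.5 FPKM (SD, n = 5 each), a ratio of 2.89. The log2 fold change was 1.27 with a standard error of 0.40 (95% interval 0.39 to 2.15). limma gave an unadjusted p of 0.00861, which ranked *Jun* 136th of 13306 genes, and a Benjamini-Hochberg adjusted p of 0.812, and the exact two-sided permutation test over all 252 splits of the livers gave p = 0.0317. *Jun* was thus not called once all genes were taken into account.

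The sign of the *Jun* difference held, and its unadjusted p stayed between 0.00165 and 0.0431, under each of 22 other settings and omissions of livers. The log2 fold change ranged from 0.96, without ASK1+hep replicate 4, to 1.61, and the adjusted p from 0.383 to 0.998. *Junos*, annotated on the opposite strand of *Jun*, was 0.0658 to 0.242 FPKM in the 10 livers. The use of strand in counting is not given in the sources used here, and reads from the overlap could then not be told apart.

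*Jund* (ENSMUSG00000071076, chr8:70698949-70700616, plus strand, 1 exon) encodes the Jun protein that is expressed most evenly in resting tissue. It was 21.8, 38.0, 32.9, 22.1 and 24.9 FPKM in ASK1f/f and 28.3, 51.7, 107, 55.7 and 22.7 FPKM in ASK1+hep livers. ASK1+hep replicates 2, 3 and 4 lay above all ASK1f/f livers, whereas replicate 5 lay low in the control range. The log2 fold change was 0.73 with a standard error of 0.35 (95% interval -0.045 to 1.50), the limma p was 0.0626 (adjusted p 0.812), and the exact permutation p was 0.111. Without ASK1+hep replicate 3 the log2 fold change was 0.43 (limma adjusted p 0.998). With correction for GC content and gene length it was 0.57 (limma adjusted p 0.739), with an unadjusted p under 0.05. With replicate number as a block, limma gave an unadjusted p of 0.0212 (adjusted p 0.727). Block and correction together gave an unadjusted limma p of 0.00557 (adjusted p 0.579). The labels do not say whether equal numbers are pairs. *Gm11175*, which overlaps *Jund* on the other strand, was at 0 in all libraries.

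*Junb* (ENSMUSG00000052837, chr8:84974484-84978718, minus strand) encodes a Jun protein with weaker activation of many c-Jun targets and is known as a target of cytokine signalling through STAT3. In ASK1f/f livers it was 7.60, 65.1, 6.28, 6.28 and 43.5 FPKM, and in ASK1+hep livers 8.08, 48.4, 13.5, 56.7 and 14.9 FPKM. The livers fell apart into 4 with 43.5 FPKM or more and 6 with 14.9 FPKM or less, and each genotype held 2 of the former. The genotype difference was 0.43 on the log2 scale with a standard error of 0.73 (exact permutation p = 0.587, limma adjusted p 0.895). Its 95% interval, -1.16 to 2.02, left room for a difference of either sign larger than that of *Jund*. The value was 0.093 without ASK1+hep replicate 4, 0.13 without ASK1f/f replicate 3, 0.78 without ASK1f/f replicate 5, 0.92 without ASK1f/f replicate 2 and 1.17 with quality weights. *Junb* overlaps *Prdx2* on the opposite strand (31.3 to 90.5 FPKM), a peroxiredoxin gene that is abundant in red cells and was highest in ASK1+hep replicate 3, a liver with low *Junb*.

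*Fos* (ENSMUSG00000021250, chr12:85473890-85477273, plus strand, 4 exons) encodes c-Fos, the classic inducible partner of c-Jun. It rested on 8 to 36 reads per library, for which exact Poisson intervals are 3.45 to 15.8 and 25.2 to 49.8 reads and cover counting error only. Levels were 0.509, 0.972, 0.426, 0.307 and 0.663 FPKM in ASK1f/f and 0.199, 1.09, 0.309, 0.893 and 0.370 FPKM in ASK1+hep livers. The lowest and the highest value both belonged to ASK1+hep mice. With a log2 fold change of -0.02 and a standard error of 0.16 (95% interval -0.38 to 0.33, exact permutation p = 0.913, limma adjusted p 0.978), a difference was not detectable, and the sign of this value turned with the processing.

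*Fosl2* (ENSMUSG00000029135, chr5:32135801-32157842, plus strand, 4 exons) encodes Fra-2, a Fos protein without the strong activation domain of c-Fos, and it was the most abundant Fos family transcript in these livers per length. It was 0.650, 2.46, 0.760, 0.672 and 2.14 FPKM in ASK1f/f and 0.691, 1.60, 0.825, 0.979 and 0.742 FPKM in ASK1+hep livers. ASK1f/f replicates 2 and 5 stood above all other livers. The log2 fold change was -0.19 with a standard error of 0.22 (exact permutation p = 0.484, limma adjusted p 0.857). Without ASK1f/f replicate 2 it was -0.025, and without ASK1f/f replicate 5 it was -0.060. *Fosb* (ENSMUSG00000003545), whose product is known from long-lasting responses in brain, had 1 to 14 reads per library (0.0104 to 0.142 FPKM in ASK1f/f, 0.0116 to 0.0564 FPKM in ASK1+hep livers). At this depth no genotype difference could be judged (exact permutation p = 0.492).

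*Egr1* (ENSMUSG00000038418, 2 exons) encodes a zinc finger factor outside AP-1 whose gene answers to ERK and serum response factor. It was 1.80, 4.32, 1.64, 0.938 and 4.83 FPKM in ASK1f/f and 1.22, 3.43, 1.55, 1.71 and 4.66 FPKM in ASK1+hep livers. Both genotypes contained low and high livers and nearly the same highest value. The difference was -0.04 on the log2 scale with a standard error of 0.34 (95% interval -0.79 to 0.70, exact permutation p = 0.897, limma adjusted p 0.982), and its sign turned when any of 5 single livers was left out.

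*Btg2* (ENSMUSG00000020423, chr1:134075170-134079120, minus strand, 2 exons) encodes an antiproliferative protein that recruits deadenylases to transcripts and is also induced by p53. Its level was 3.49, 14.5, 2.36, 3.19 and 12.5 FPKM in ASK1f/f and 7.27, 5.89, 8.20, 10.0 and 8.52 FPKM in ASK1+hep livers. All ASK1+hep values lay in the gap between the 3 low and the 2 high ASK1f/f livers. Mean *Btg2* was 7.22 ± 5.81 FPKM in the controls and 7.99 ± 1.54 FPKM in ASK1+hep mice (SD, n = 5 each). The log2 fold change was 0.41 with a standard error of 0.40 (exact permutation p = 0.397, limma adjusted p 0.838). Leaving out ASK1f/f replicate 3 gave 0.16, leaving out ASK1f/f replicate 2 or 5 gave 0.72 or 0.67, and quality weights gave 0.83.

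*Ier2* (ENSMUSG00000053560, chr8:84661331-84662852, minus strand, 1 exon), a short intronless response gene, had the smallest ratio of the highest to the lowest liver among the members (2.23). It was 14.9, 13.4, 15, 13.9 and 18.7 FPKM in ASK1f/f and 15.6, 12.9, 28.6, 24.4 and 12.9 FPKM in ASK1+hep livers. ASK1+hep replicates 3 and 4 were above all other livers and replicates 2 and 5 below all. The log2 fold change was 0.23 with a standard error of 0.21 (exact permutation p = 0.373, limma adjusted p 0.822). It was 0.072 without ASK1+hep replicate 3, 0.13 without ASK1+hep replicate 4 and 0.10 after GC and length correction. *Ier3* (ENSMUSG00000003541, chr17:35821684-35822923, plus strand, 2 exons), a survival gene under NF-κB, had 3 to 23 reads per library, from 0.212 to 1.12 FPKM in ASK1f/f and from 0.180 to 1.48 FPKM in ASK1+hep livers (exact permutation p = 0.976). Its highest value was in ASK1+hep replicate 3 and its lowest values in ASK1+hep replicates 4 and 5.

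Variation among mice of the same genotype was large for most members. The within-genotype SD on the log2 scale was 1.38 for *Junb*, above 99.8% of the 13306 genes, 0.76 for *Jun*, 0.75 for *Btg2*, 0.66 for *Jund* and 0.63 for *Egr1*, against a median of 0.19 over all genes. *Ier2*, at 0.38, and *Fos*, at 0.30 on the log2(FPKM + 1) scale that compresses low values, were nearer to the other genes. On this scale, a given genotype difference was therefore harder to detect in most members than in the median gene. The scale also compresses the low genes behind that median, and members were not compared with genes of like level.

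The members did not vary as a single block. The following patterns were looked for after the values had been seen and are descriptions of these 10 livers. *Junb*, *Fos* and *Fosl2* shared the same 4 highest livers, namely ASK1f/f replicates 2 and 5 and ASK1+hep replicates 2 and 4, as did 105 of the 13306 genes (0.789%). Over the 10 livers, after subtraction of the genotype means, *Fos* and *Fosl2* had r = 0.76 (Spearman's rho 0.65), and r = 0.52 without the 2 livers farthest from the *Fos* median. *Fosl2* also had r = 0.80 with *Btg2* (rho 0.82) and r = 0.75 with *Egr1* (rho 0.55). Without the 2 livers farthest from the *Fosl2* median, these r were 0.43 and 0.54. No r is given for *Junb*, whose livers form separate clusters.

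A few genes known to respond to cytokines were looked up after the values had been seen, with no test of this theme among the 105 genes. *Socs3*, the feedback inhibitor of STAT3 signalling, was 1.39, 21.5, 1.04, 1.73 and 14.6 FPKM in ASK1f/f and 1.87, 8.86, 1.10, 6.21 and 2.59 FPKM in ASK1+hep livers. *Stat3* itself, *Bcl3*, an NF-κB cofactor, the neutrophil chemokine gene *Cxcl1* and the acute phase gene *Saa1* had the same 4 highest livers as *Junb*, and so had *Socs3*. *Zfp36*, which encodes an RNA-binding protein that destabilises cytokine transcripts, shared 3 of them, with ASK1f/f replicate 3 in place of replicate 5. *Saa1* reached 1557 and 904 FPKM in ASK1f/f replicates 2 and 5, but 70.8 and 116 FPKM in ASK1+hep replicates 2 and 4, so the 4 livers differed in the level of this gene, whose reads may be shared with its close copy *Saa2*. *Lcn2*, another acute phase gene, was 124 and 45.3 FPKM in the former pair and at most 4.10 FPKM in the other livers. None of these genes differed between genotypes by the adjusted limma test (adjusted p from 0.812 to 0.949).

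**Figure D3:**
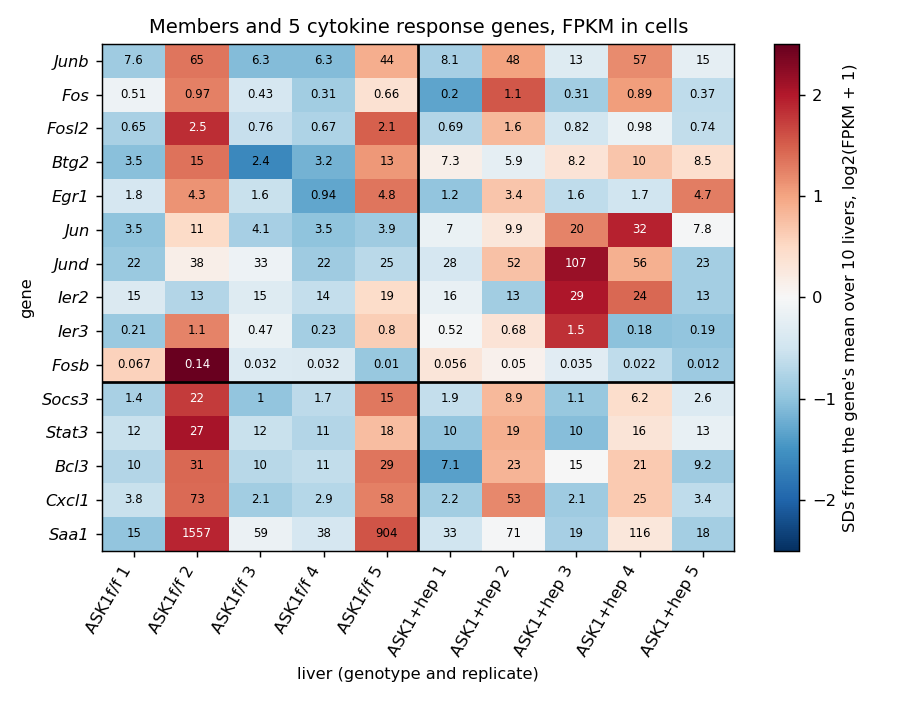
Members (above the line) and 5 cytokine response genes that share the *Junb* livers and were chosen for this (below) in each liver; the colour gives SDs from the mean of the gene over 10 livers on log2(FPKM + 1), and the number in each cell is the FPKM. *Junb*, *Fos* and *Fosl2* have the same 4 highest livers as *Socs3* and *Saa1*, whereas *Jun*, *Jund* and *Ier2* are highest in ASK1+hep replicates 3 and 4.

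*Jun*, *Jund* and *Ier2* showed another order, with their highest values in ASK1+hep replicates 3 and 4. The orders were not separate, since *Jun* and *Jund* each had 3 of the 4 highest *Junb* livers among their own 4 highest, and *Ier2* had 2. *Jun* and *Jund* had r = 0.72 over the 10 livers (rho 0.85), 0.94 without the 2 livers farthest from the *Jun* median and 0.73 after GC and length correction. For *Jund* and *Ier2*, r was 0.65, but 0.11 without 2 livers and 0.16 after the correction. *Jun* and *Ier2* had r = 0.56 (rho 0.73), 0.83 without 2 livers and 0.31 after the correction. The correction thus left r of *Jun* with *Jund* nearly as it was and lowered that of *Ier2* with both. *Atf3*, a stress-induced partner of c-Jun named after its values were seen, was likewise highest in ASK1+hep replicate 3 (3.03 FPKM), against 0.195 to 1.30 FPKM in ASK1f/f and 0.762 to 1.07 FPKM in the other ASK1+hep livers (exact permutation p = 0.135, limma adjusted p 0.812).

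Markers of other cell types moved in part with these livers. Erythroid markers summed to 333 to 490 FPKM in ASK1f/f and 324 to 1053 FPKM in ASK1+hep livers, and their highest sums, 1053 and 833 FPKM, were in ASK1+hep replicates 4 and 3. Of 5 erythroid markers tested, 4 had a positive log2 fold change and 2 an unadjusted limma p under 0.05, namely *Hba-a2* (1.20, exact permutation p = 0.0159) and *Hbb-bt* (0.64, exact permutation p = 0.0317), and none passed adjustment. Globin genes have near-identical copies, so their single values are uncertain. The part of these cells in the *Jun* and *Jund* values was not tested. Neutrophil markers summed to 17.3 FPKM in ASK1f/f replicate 5 and to 2.10 to 9.16 FPKM in the others, and *Ly6g*, *Mpo* and *Cxcr2* were at 0 in some. All 9 macrophage markers had a negative log2 fold change (median -0.21) without any unadjusted p under 0.05, and their sums, 132 to 205 FPKM in ASK1f/f and 83.1 to 205 FPKM in ASK1+hep livers, overlapped. Lymphocyte markers had their highest sums, 4.54 and 4.36 FPKM, in ASK1+hep replicates 3 and 4, the livers with the highest *Jun*, *Jund* and *Ier2*, against 1.04 to 3.43 FPKM in the others, and *Cd3d*, *Cd3g* and *Trac* were at 0 in some libraries. Their part in these values was not tested. No endothelial, stellate cell, cholangiocyte or lymphocyte marker tested had an unadjusted limma p under 0.05. Only 2 of 8 lymphocyte markers passed the filter, so this says little for lymphocytes. Of 9 hepatocyte markers only *Ttr* had such a p, with a log2 fold change of 0.52 (exact permutation p = 0.0317, limma adjusted p 0.812). In bulk liver, fewer cells of a type and less RNA per cell cannot be told apart.

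The make-up of the AP-1 transcripts was computed as the share of each in the summed FPKM of *Fos*, *Fosb*, *Fosl2*, *Jun*, *Junb* and *Jund*, a measure chosen after the values were seen and therefore given without a test. The sum was 32.9 to 146 FPKM per liver. *Junb* and *Jund* together dominated it, in changing proportion, with *Junb* at 9.55 to 57.9% and *Jund* at 32.2 to 75.7%. *Jun* made up 10.3, 9.56, 9.18, 10.7 and 5.15% in ASK1f/f livers and 15.7, 8.76, 13.9, 21.7 and 16.7% in ASK1+hep livers. All ASK1+hep livers but replicate 2 lay above the controls. The 3 Fos family genes made up 3.59, 3.03, 2.74, 3.07 and 3.75% in ASK1f/f and 2.14, 2.42, 0.828, 1.30 and 2.42% in ASK1+hep livers. Its groups did not overlap in the deposited values. Without *Fosb* these values still did not overlap, with 2.67 to 3.73% in ASK1f/f and 0.804 to 2.40% in ASK1+hep livers. After GC and length correction and without *Fosb*, they did, with 2.52 to 3.52% in ASK1f/f and 1.09 to 2.66% in ASK1+hep livers. Since shares add up to a whole, a higher *Jun* or *Jund* lowers that of the Fos family without any change in *Fos* or *Fosl2*.

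**Figure D4:**
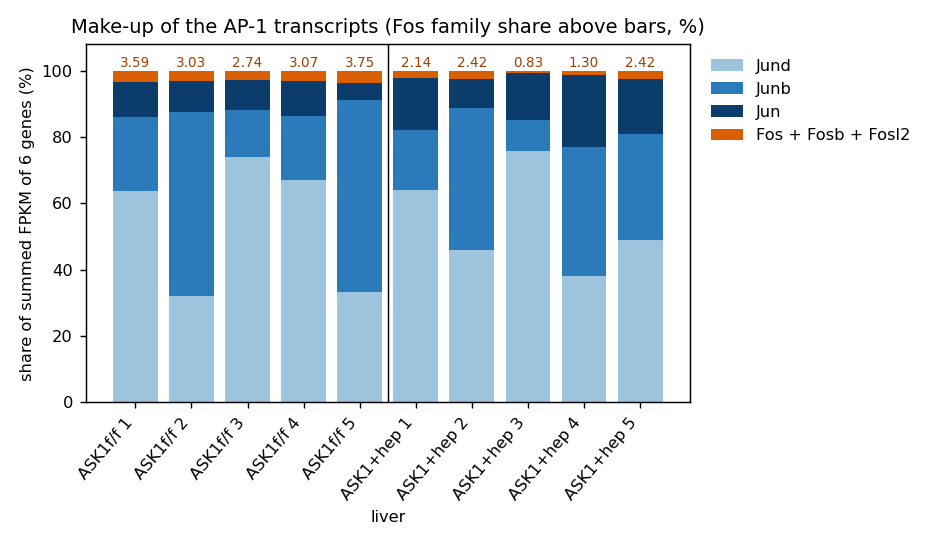
Share (%) of *Jund*, *Junb*, *Jun* and the Fos family in the summed FPKM of 6 AP-1 genes in each liver; the number above each bar is the Fos family share. Fos family shares are 2.74 to 3.75% in ASK1f/f and 0.828 to 2.42% in ASK1+hep livers, and *Junb* takes its largest shares in ASK1f/f replicates 2 and 5.

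Genes that deviated most like *Fos*, *Jun* and *Egr1* from the genotype means were named by the highest Pearson's r over the 10 livers among all genes tested, as a description with no p. For *Jun* these were *Trabd*, *Xpnpep1*, *Thsd1*, *Gmppa* and *Xbp1* (r = 0.93 to 0.95, and 0.89 to 0.96 after GC and length correction). *Xbp1* encodes a bZIP factor of the unfolded protein response. For *Egr1* they were *Slc41a3*, *Hnf4a*, *Thbd*, *Pole4* and *Arhgef17* (r = 0.91 to 0.98), and for *Fos* they were *Itih1*, *Rps10*, *Sebox*, *Proser3* and *Wdr46* (r = 0.92 to 0.97). After the correction r was 0.84 to 0.98 for the *Egr1* list and 0.68 to 0.95 for the *Fos* list. With 8 to 36 reads behind each *Fos* value, its list is the least certain of the 3.

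The genes around AP-1 gave no adjusted call either. Of 12 other bZIP genes tested, 6 had a positive log2 fold change (median 0.0068), and *Maff*, a small Maf protein that pairs with bZIP factors, was the only one with an unadjusted limma p under 0.05. *Maff* was 2.66, 2.28, 2.60, 1.82 and 3.26 FPKM in ASK1f/f and 2.55, 3.76, 4.36, 3.08 and 4.56 FPKM in ASK1+hep livers, a log2 fold change of 0.40 with a standard error of 0.15 (exact permutation p = 0.0556, limma adjusted p 0.812). Of 35 other immediate early and rapid response genes, 20 were positive (median 0.052), and of 16 kinases and adaptors from ASK1 to AP-1 9 (median 0.016). The latter list includes *Map3k5* itself, which had its highest log2 fold change (0.60). Of 6 genes for serum response factor and its partners 2 were positive (median -0.051), and of 12 textbook AP-1 targets 4 (median -0.091). None of the genes in these 4 lists had an unadjusted p under 0.05, against 3.05% higher and 2.72% lower over all genes. *Fosl1* and *Mapk10*, which encode Fra-1 and the JNK form of nervous tissue, were at 0 in some and in all libraries, respectively.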

How the data were processed

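Liver RNA of 10 mice (5 ASK1f/f, 5 ASK1+hep, grouped by genotype label) was sequenced by the authors' provider. The authors purified poly-A RNA, cleaned reads (fastp is named in the submitters' processing notes), mapped them with Hisat2, counted with FeatureCounts and deposited FPKM per gene. Genome build and strand setting are not given in the sources used here. Of 54532 genes, 54495 were in GENCODE M21 (GRCm38), 98.3% with equal coordinates.

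FPKM times gene length gave whole reads within 0.1 for 100% of values, and the recovered reads served for filter and depth. With libraries scaled to their median size, genes with 10 or more reads in 5 or more livers and 15 or more in all (13306) were compared with limma 3.58.1 (R 4.3.3) on log2(FPKM + 1), a scale that understates changes of low genes, with trend and Benjamini-Hochberg adjustment. The authors' DESeq2 test was not repeated. The fit was tested on simulated data. Exact permutation tests ran over 252 splits (smallest p 0.00794). Libraries were separate mice, and no 2 were alike within counting noise (lowest chi-square per degree of freedom 19.2). ASK1+hep replicate 3 was the least like the others, with 103 to 221 in its pairs, against at most 98.8 in pairs without it. This library also held the highest *Jund*, *Ier2*, *Ier3* and *Atf3* values. GC content was found for 99.93% of genes tested, and the correction used splines with 5 degrees of freedom.

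Named were the members, *Map3k5*, up to 3 genes per direction and list with an unadjusted p under 0.05, and 5 neighbours each of *Fos*, *Jun* and *Egr1*. The members, lists and tests were chosen with earlier results of these data known. *Socs3*, *Stat3*, *Bcl3*, *Cxcl1*, *Saa1*, *Lcn2*, *Zfp36*, *Atf3*, *Fgf21*, overlapping genes, the motifs and the shares were chosen after values were seen.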

Additional observations from a re-analysis of the deposited data

Results flagged for a closer look

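Among 22 sets of 5 livers (each member, *Map3k5*, by genotype), 2 held a value whose gap to the nearest liver exceeded 0.71 of the range. About 1 in 20 is flagged by chance if values are normally distributed, which was not checked for FPKM. *Jun* in ASK1f/f replicate 2 (11.3 FPKM) was far above the other 4 controls, with a gap of 0.927 of the range. This liver was also highest of the controls in *Junb*, *Fos*, *Fosl2* and *Btg2*. Without it, the *Jun* log2 fold change was 1.55. *Map3k5* in the library labelled ASK1f/f replicate 5 (19.8 FPKM) was far above the other controls, with a gap of 0.856 of the range, although the genotype carries no Alb-Cre. *Fgf21* in this library was 3.21 FPKM, inside the control range and below all ASK1+hep livers. The cause was not tested.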

How the results depend on the processing

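Genes called across the table numbered 0, but 1 with quality weights (*Fgf21*, the hepatokine gene), 0 to 1 when single livers were left out (*Fgf21*, without ASK1+hep replicate 5), and 3 (*Asns*, *Mup18* and *Cyp2d41-ps*, of which the *Mup* and *Cyp2d* families share reads between copies) without both ASK1f/f replicate 5 and ASK1+hep replicate 3, an omission chosen after seeing the data. Genes at an unadjusted p under 0.05 numbered 1222 with no filter and 557 to 1724 with single livers left out, the most without ASK1+hep replicate 5, followed by 1178 without ASK1+hep replicate 1. Members at that level numbered 2 with quality weights, with GC and length correction, with the replicate block and with the block plus correction, and 1 to 2 with single livers left out (2 without ASK1f/f replicate 2, ASK1+hep replicate 1 or ASK1+hep replicate 5). The added member was *Jund* in each (limma adjusted p 0.727 with the block). The sign turned for *Fos* with quality weights (0.13), quantile normalisation (0.0025) and both libraries left out (0.056), with -0.13 to 0.065 over single omissions, for *Fosl2* with quality weights (0.013), and for *Egr1* with quality weights (0.17) and both libraries left out (0.25), with -0.24 to 0.15 over single omissions. The cause was not tested.

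Scaling by all reads put 31.4% of the genes at an unadjusted p under 0.05 on the higher side, against 52.9%, and moved the median of all genes to -0.052, with no change of sign in a member. Same-numbered livers had correlations of 0.021 to 0.17 between their deviations, under 0.1 in some pairs. Their mean was 0.107, against -0.027 for livers of different number and genotype, and 6 of 10 livers correlated best with their own number. The tags of mice with equal numbers follow each other except in the fifth pair, but the labels name no shared litter or day. Whether equal numbers are pairs is thus not settled. The main fit did not take them as pairs, and the replicate block gave 880 genes at an unadjusted p under 0.05. The member median was 0.11 to 0.49 over all settings. Depth limited *Fos*, *Fosb* and *Ier3* (at most 36 reads).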
